A study of Sus scrofa with 35 samples.

Results

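Lysosomes are acidic organelles in which hydrolases degrade glycans, lipids and proteins delivered by endocytosis, phagocytosis and autophagy. Most soluble hydrolases receive a mannose 6-phosphate tag and are carried from the Golgi by the receptors M6PR and IGF2R, whereas heavily glycosylated membrane proteins protect the organelle and transport the products of digestion. In blood, neutrophils, monocytes and platelets carry lysosomes or related granules, and maturing red cells lose theirs. Here, 42 genes of this system, chosen by name and with earlier results of these data known, were followed in whole blood of pigs.

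The data were log2 intensities of 35 one-colour arrays, each of 1 castrated male growing pig. The pigs were Creole (CR), Large White (LW) or F1 pigs of the Large White by Creole cross, in thermoneutral conditions (TN, 24 °C) or heat stress (HS). For HS, 30 °C stands in the sample labels while 32 °C for 5 d stands in the protocol, and the methods give slaughter after 4 or 5 d; neither was settled here. Groups held 6 pigs, apart from CR pigs in TN with 5. TN pigs were slaughtered before the temperature rose, so climate and day of slaughter cannot be told apart. By the study's methods the pigs were growing littermates of a few litters per breed, and each pen held pigs of 1 breed that were slaughtered in the same climate. Litter, pen and age are not labelled, so p-values treat littermates and pen mates as independent.

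A probe belonged to a gene when its name in the scanner files equalled the gene symbol. Of the 42 genes, 34 had a probe under their symbol and 32 had at least 1 probe in the authors' log2 table, with 85 of 39072 probes. ASAH1 (acid ceramidase) and PPT1 (a thioesterase that removes palmitate from proteins) had probes outside the table only, and these were well above background on 0 and 1 of the 35 arrays. ACP2, ARSA, GLA, GLB1, GM2A, IDUA, LAMP1 and MANBA had no probe under these symbols. Each gene was represented by its probe with the highest mean over all arrays, and 76 of the 85 probes were well above background on all 35 arrays. Intensities of different probes are not compared as levels.

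In HS, the representative probes of 13 of the 32 genes were up-regulated and those of 2, LAPTM4A and CLN3, were down-regulated over the 3 breeds (limma, additive model of breed and climate, adjusted p under 0.05). For CLN3, M6PR and ACP5 other probes passed in the opposite direction, and no direction is given for CLN3 as a gene. The 15 genes were 46.9% of those measured, against 39.6% of the 8601 named genes and 34.8% of all 39072 probes. The up-regulated share of all named genes was 22.7% and the down-regulated share was 16.8%. The median HS minus TN difference was 0.18 on the log2 scale for the 32 genes and 0.06 for all named genes. Of the 32 genes, 25 were higher in HS, against 4997 of the 8601 named genes. The differences were small, from a fall by 0.51 for the CLN3 probe to a rise of 0.43 for LAPTM5. The count of 15 thus lies near the share called among all genes, and nothing particular to lysosomal genes is read from it.

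**Figure D1:**
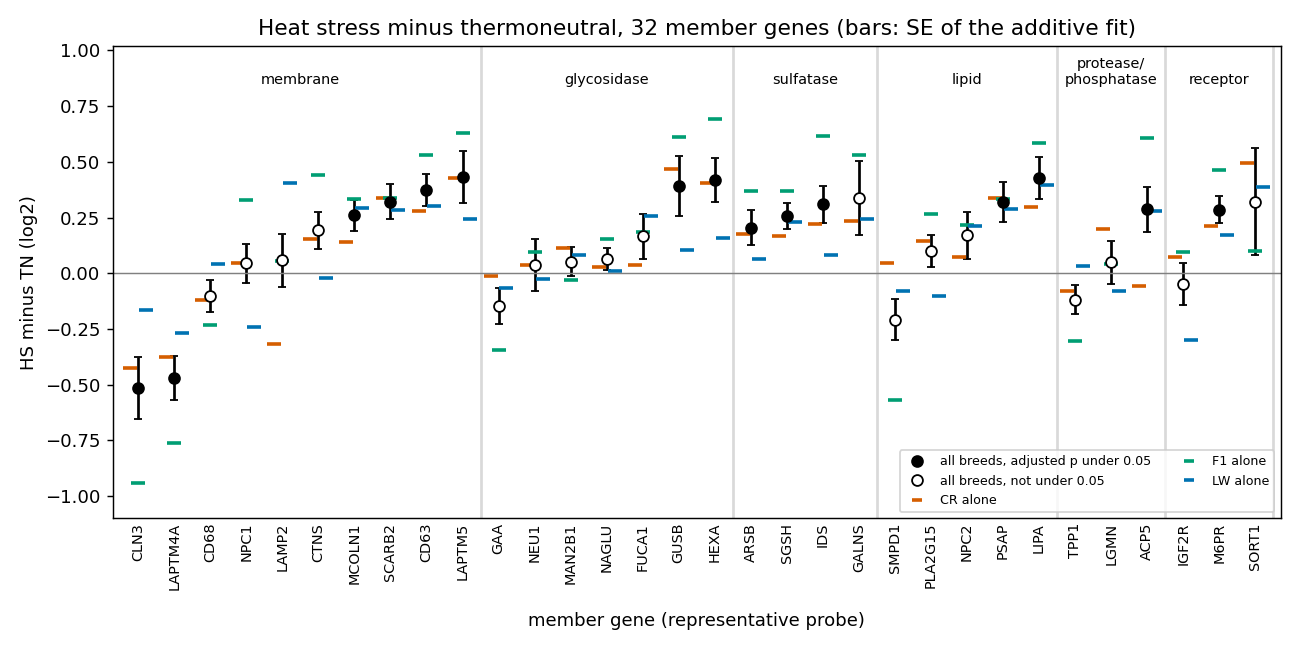
HS minus TN difference (log2, vertical axis) of the 32 measured genes, grouped by role; points with bars are the additive fit with its SE, filled where the adjusted p was under 0.05, and coloured dashes are the differences within CR, F1 and LW pigs. The 15 filled points lie between -0.51 and 0.43, and the F1 dashes are the farthest from 0 for most of them.

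Of the membrane proteins, 10 of 11 were measured; 4 were up-regulated, LAPTM4A was down-regulated, and the CLN3 probe fell while 2 of its other probes rose. CD63, a tetraspanin of late endosomes, lysosomes and secretory granules, had the smallest p-value of all members. Its log2 values in TN pigs were 12.68 to 13.25 (median 12.82) in CR, 12.61 to 13.10 (median 12.92) in F1 and 12.77 to 13.20 (median 13.01) in LW. In HS pigs they were 12.92 to 13.49 (median 13.28) in CR, 13.20 to 13.69 (median 13.36) in F1 and 13.11 to 13.65 (median 13.19) in LW. The groups did not overlap in F1 and overlapped in CR and LW, with 17 of 18 HS pigs above the TN mean of their breed. The difference was 0.37 ± 0.07 (SE, adjusted p = 0.00159 by limma, 1.3-fold).

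SCARB2, the receptor that carries glucocerebrosidase to lysosomes, rose by 0.32 ± 0.08 (SE, adjusted p = 0.00351 by limma). Its values were 8.26 to 8.91 in TN pigs of CR and F1 and 7.95 to 8.86 in LW, against 8.79 to 9.14 in CR, 8.52 to 9.16 in F1 and 8.58 to 9.15 in LW under HS. The groups overlapped in each breed, while 17 of 18 HS pigs exceeded the TN mean of their breed, and the rise was of similar size in CR (0.34), F1 (0.34) and LW (0.29). All 9 SCARB2 probes were higher in HS, by 0.15 to 0.40.

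MCOLN1, a cation channel that releases calcium from lysosomes, rose by 0.26 ± 0.07 (SE, adjusted p = 0.00606 by limma). The TN pigs had 8.78 to 9.17 in CR, 8.63 to 9.16 in F1 and 8.89 to 9.31 in LW, and the HS pigs had 8.66 to 9.52, 8.99 to 9.42 and 9.02 to 9.51. The groups overlapped in every breed, most widely in CR, where the HS range enclosed the TN range.

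LAPTM5, a lysosomal membrane protein of blood cells, rose by 0.43 ± 0.11 (SE, adjusted p = 0.00545 by limma). Its values were 12.64 to 13.34 in CR, 12.26 to 13.28 in F1 and 12.95 to 13.69 in LW pigs in TN, against 12.83 to 13.92, 12.78 to 13.80 and 13.24 to 13.76 in HS. The ranges overlapped in each breed. Both LAPTM5 probes rose, but they share a run of 45 bases and are not independent.

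LAPTM4A, a related protein of lysosomal and endosomal membranes, moved the other way and fell by 0.47 on the log2 scale (SE 0.10, adjusted p = 0.0016 by limma). TN values were 10.49 to 11.27 (median 10.99) in CR, 10.71 to 11.81 (median 11.09) in F1 and 10.65 to 11.01 (median 10.72) in LW. HS values were 9.94 to 10.99 (median 10.67) in CR, 10.17 to 10.72 (median 10.40) in F1 and 10.18 to 10.73 (median 10.52) in LW. In F1 the highest HS pig barely exceeded the lowest TN pig, and the ranges overlapped more in the other breeds. Only 1 of 18 HS pigs lay above the TN mean of its breed, and the other LAPTM4A probe fell by 0.37.

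The other membrane genes did not pass the test. CTNS, the cystine exporter, differed by 0.19 (adjusted p = 0.0666 by limma), and NPC1, which exports cholesterol, by 0.04. CD68, abundant in macrophage lysosomes, differed by -0.10. The representative probe of LAMP2, a main glycoprotein of the lysosomal membrane, differed by 0.06. Of its other 6 probes, 2 passed the threshold upwards at 0.19 and 0.21. Another 2 were lower in HS without passing, the lowest at -0.25.

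**Figure D2:**
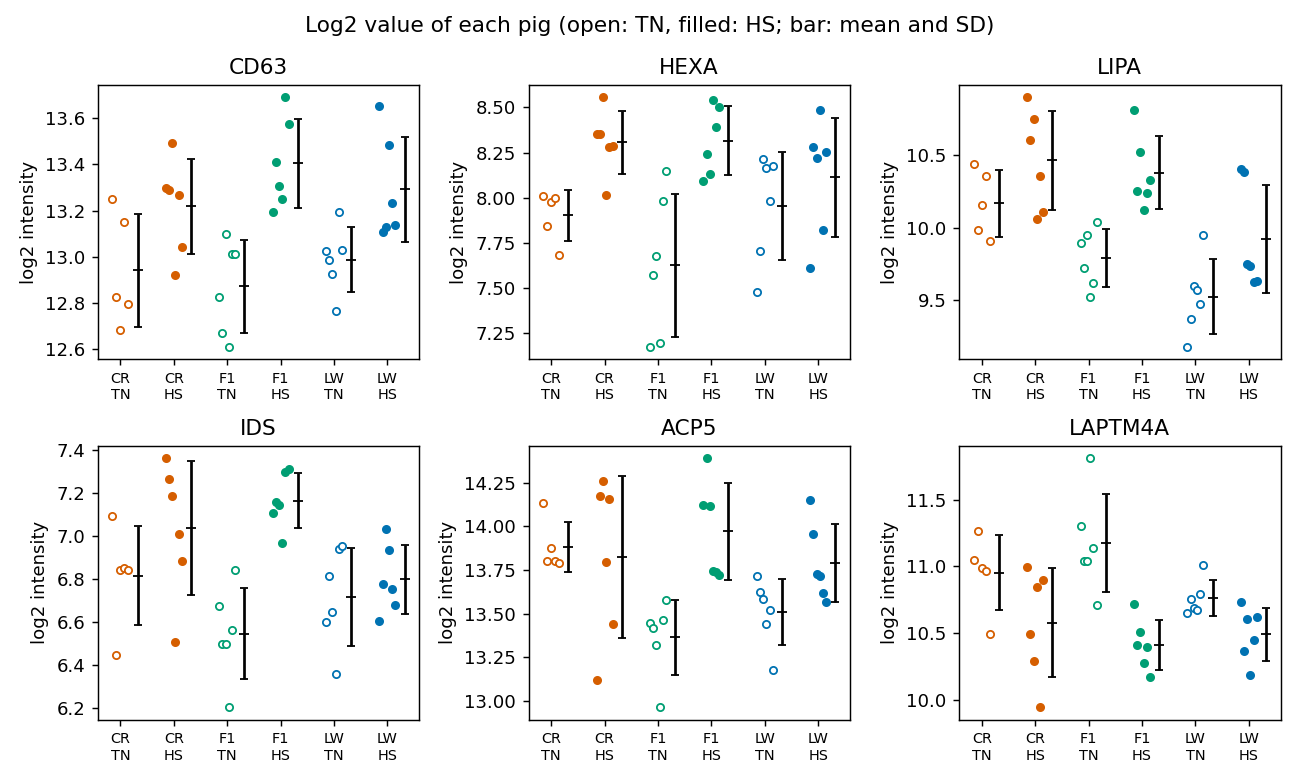
Log2 intensity (vertical axis) of each pig for CD63, HEXA, LIPA, IDS, ACP5 and LAPTM4A in the 6 groups of breed and climate, open for TN and filled for HS, with the mean and SD of each group. HS and TN pigs of F1 do not overlap for CD63, LIPA, IDS and ACP5, and those of CR are apart for HEXA by a very narrow gap.

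Of the glycosidases, 7 of 11 were measured and 2 were up-regulated, with none down-regulated in the additive fit. HEXA encodes the alpha subunit of beta-hexosaminidase, which cleaves terminal hexosamines from gangliosides and other glycans. Its values were 7.68 to 8.01 (median 7.98) in CR, 7.18 to 8.15 (median 7.63) in F1 and 7.48 to 8.21 (median 8.07) in LW pigs in TN, and 8.02 to 8.56 (median 8.32), 8.09 to 8.54 (median 8.32) and 7.61 to 8.49 (median 8.24) in HS. HS pigs of CR all exceeded the TN pigs of CR, but narrowly, with the lowest HS pig at 8.016 and the highest TN pig at 8.009. The other breeds overlapped. A probe outside the naming rule that shares bases with the HEXA probes overlapped between the climates in CR. The rise was 0.42 ± 0.10 (SE, adjusted p = 0.00243 by limma).

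HEXA carried 2 probes with the same 60 bases, which show how closely repeated spots agree and are therefore printed.
HEXA A_72_P085601: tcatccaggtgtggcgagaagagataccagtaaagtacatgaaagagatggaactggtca
HEXA O9237: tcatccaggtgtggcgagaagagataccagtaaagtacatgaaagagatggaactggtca
Over the 35 arrays the second of them was 0.11 ± 0.11 (SD) higher on the log2 scale than the first, with -0.08 to 0.43 on single arrays, and the pair had a Pearson correlation of 0.959 across pigs, given as a description. The HS minus TN differences of the pair were 0.48 and 0.42.

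GUSB, beta-glucuronidase, rose by 0.39 ± 0.14 (SE, adjusted p = 0.0244 by limma), and its other probe in the table by 0.31. The climates overlapped in each breed for the representative GUSB probe, and in CR the HS range enclosed that of TN. The GUSB difference was 0.47 in CR, 0.61 in F1 and 0.11 in LW. GAA (acid alpha-glucosidase, which breaks down glycogen) differed by -0.15, FUCA1 (alpha-fucosidase) by 0.16, NAGLU by 0.07 and the sialidase NEU1 by 0.04. The probe named MAN2B1 differed by 0.05, and none of these 5 passed the threshold. Judged from the known protein and not from a reference used here, the MAN2B1 probe reads as coding sequence on the opposite strand, as do those of ASAH1 and PPT1. The value of the MAN2B1 probe is therefore not taken as that of the gene, although it stays in the counts of 7 glycosidases and 32 genes.

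The sulfatases remove sulfate groups from glycosaminoglycans. Of 5 genes, 4 were measured, 3 were up-regulated and all 4 were higher in HS. IDS, iduronate sulfatase, had TN values of 6.45 to 7.09 (median 6.84) in CR, 6.20 to 6.84 (median 6.53) in F1 and 6.36 to 6.95 (median 6.73) in LW. Its HS values were 6.51 to 7.36 (median 7.10) in CR, 6.97 to 7.31 (median 7.15) in F1 and 6.61 to 7.03 (median 6.77) in LW. HS and TN were apart in F1 alone, and the difference over breeds was 0.31 ± 0.08 (SE, adjusted p = 0.00595 by limma). The other IDS probe in the table differed by 0.13 and did not pass.

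SGSH, the sulfamidase of heparan sulfate, rose by 0.26 ± 0.06 (SE, adjusted p = 0.0024 by limma), from 8.45 to 8.62 in CR, 7.91 to 8.43 in F1 and 8.14 to 8.43 in LW pigs in TN to 8.41 to 8.97, 8.42 to 8.82 and 8.22 to 8.67 in HS. The ranges overlapped in all breeds. ARSB rose by 0.20 ± 0.08 (SE, adjusted p = 0.0426 by limma), with TN values of 6.81 to 7.51, 6.74 to 7.29 and 6.63 to 7.09 and HS values of 7.13 to 7.47, 6.88 to 7.70 and 6.80 to 7.30 in CR, F1 and LW. Its call lay at the threshold and was lost under 23 of the 48 alternatives tried, 16 of which left out 1 pig. With scaling on the 75th percentile its adjusted p was 0.0814 by limma (0.0185 to 0.447 over all alternatives), and the difference ranged from 0.17 to 0.23 when 1 pig was left out. The brightest GALNS probe differed by 0.34 without passing (adjusted p = 0.106 by limma), and another GALNS probe passed at 0.31.

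Of the lipid genes, 5 of 8 were measured and 2 were up-regulated. LIPA, the acid lipase that frees cholesterol and fatty acids from lipoprotein lipids, had TN values of 9.91 to 10.44 (median 10.15) in CR, 9.53 to 10.04 (median 9.81) in F1 and 9.18 to 9.95 (median 9.53) in LW. In HS it had 10.06 to 10.89 (median 10.48) in CR, 10.12 to 10.81 (median 10.29) in F1 and 9.62 to 10.40 (median 9.74) in LW. The climates were apart in F1 and overlapped in CR and LW. The rise was 0.43 ± 0.09 (SE, adjusted p = 0.00186 by limma), and all 4 probes passed the threshold upwards, at 0.26 to 0.43.

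PSAP, the precursor of the saposins that assist sphingolipid hydrolysis, rose by 0.32 ± 0.09 (SE, adjusted p = 0.00786 by limma). Its values were 13.97 to 14.64 in CR, 13.99 to 14.43 in F1 and 13.78 to 14.54 in LW pigs in TN, against 14.47 to 15.16, 14.36 to 14.97 and 14.14 to 15.01 in HS. The groups overlapped in each breed, with 17 of 18 HS pigs above the TN mean of their breed. Of its 7 probes, 6 were higher in HS. NPC2, the soluble partner of NPC1, differed by 0.17 and one of its other probes passed the threshold at 0.29. PLA2G15, a lysosomal phospholipase, differed by 0.10, and SMPD1, acid sphingomyelinase, by -0.21 (adjusted p = 0.0799 by limma).

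Of the proteases and phosphatases, 3 of 4 were measured and ACP5, tartrate-resistant acid phosphatase, passed at 0.29 ± 0.10 (SE, adjusted p = 0.0261 by limma). Its TN values were 13.79 to 14.13 (median 13.80) in CR, 12.96 to 13.58 (median 13.43) in F1 and 13.18 to 13.72 (median 13.55) in LW. Its HS values were 13.12 to 14.26 (median 13.98) in CR, 13.72 to 14.39 (median 13.93) in F1 and 13.57 to 14.15 (median 13.72) in LW. HS and TN did not overlap in F1, and in CR the HS range enclosed that of TN. TPP1, a tripeptidyl peptidase, differed by -0.12 and LGMN, an asparagine-specific protease, by 0.05, neither past the threshold.

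All 3 sorting receptors were measured. M6PR, which carries tagged hydrolases, rose by 0.28 ± 0.06 (SE, adjusted p = 0.00167 by limma). Its values were 12.09 to 12.51 (median 12.30) in CR, 11.80 to 12.46 (median 12.17) in F1 and 12.27 to 12.36 (median 12.34) in LW pigs in TN. In HS they were 12.23 to 12.80 (median 12.53), 12.52 to 12.71 (median 12.63) and 12.34 to 12.64 (median 12.51). F1 pigs were separated by climate and 17 of 18 HS pigs exceeded the TN mean of their breed. IGF2R, the larger receptor of the same tag, differed by -0.05, and SORT1, sortilin, by 0.32 ± 0.24 (SE), neither past the threshold.

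For several genes the direction depended on the probe. Of 18 genes with more than 1 probe in the table, 12 had all their probes on the same side of 0, and for CLN3, ACP5 and M6PR probes passed the threshold in opposite directions. Those 12 include HEXA and MCOLN1, each with 2 probes of the same sequence, and LAPTM5, whose pair shares most of its bases. Over all 85 member probes, 42 rose and 5 fell (55.3% past the threshold; of all probes 20.1% rose and 14.7% fell), a count that weights genes by their number of probes. The CLN3 probes are printed because the gene's call rests on 1 of them; those placed by the files within a transcript are whole, and of the fourth the first 30 of 60 bases are given.
CLN3 A_72_P563419: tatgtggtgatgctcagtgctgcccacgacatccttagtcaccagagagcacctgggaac
CLN3 A_72_P527938: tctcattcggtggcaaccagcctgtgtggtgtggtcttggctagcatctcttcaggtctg
CLN3 A_72_P165221: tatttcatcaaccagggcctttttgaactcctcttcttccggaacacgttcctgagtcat
CLN3 O8921: gtggggcgttgatccttctcacctgtcaca
The files place them at positions 153, 432 and 885 of a CLN3 transcript, and O8921 has no stated place. CLN3 encodes a lysosomal membrane protein whose loss causes a childhood neurodegeneration. O8921 represented it as the brightest probe and fell by 0.51 (SE 0.14, adjusted p = 0.00592 by limma), from 7.68 to 9.15 in CR, 8.30 to 9.40 in F1 and 8.03 to 8.58 in LW pigs in TN to 7.32 to 8.50, 7.16 to 8.43 and 7.78 to 8.46 in HS. A_72_P165221 rose by 0.31 ± 0.10 (SE, adjusted p = 0.0172 by limma), from 7.13 to 7.74, 6.92 to 7.84 and 7.21 to 7.72 in TN to 7.26 to 8.07, 7.55 to 8.10 and 7.29 to 8.11 in HS. A_72_P527938 also rose, by 0.24 ± 0.09 (SE, adjusted p = 0.0414 by limma), and A_72_P563419 differed by 0.02. The climates overlapped within each breed for O8921 and A_72_P165221. No direction is therefore given for CLN3, and the mean of its probes differed by 0.01.

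M6PR and ACP5 each had 1 probe against the others. In M6PR, 5 probes rose by 0.26 to 0.40 and O9242 fell by 0.43 on the log2 scale (SE 0.09, adjusted p = 0.00165 by limma). In ACP5, 3 probes rose by 0.29 to 0.45 and A_72_P755871 fell by 0.26 (SE 0.09, adjusted p = 0.0174 by limma). The first 30 bases of each falling probe are given, with those of a rising M6PR probe. Over their whole length, the longest run of bases that this M6PR pair shares on the same strand is 7.
M6PR O9242, falling: ttgttattatttgtttgcatccctccccat
M6PR A_72_P455175, rising: gtgtggcaggctccctgaccctttcttttt
ACP5 A_72_P755871, falling: ctgctggcgggtggggggtgggccccactg
The falling ACP5 probe had a GC content of 76.7% over its 60 bases, against 41.7% to 55% for the 3 rising probes, and the falling M6PR probe had 35%, against 40% to 45%. O9242 had values of 10.90 to 11.36 in CR, 11.07 to 11.52 in F1 and 10.45 to 11.29 in LW pigs in TN, and of 10.32 to 11.20, 10.33 to 11.04 and 10.47 to 11.11 in HS, apart in F1 and overlapping in the other breeds. The transcripts behind the discordant probes were not examined, and their part in the differences was not tested.

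**Figure D3:**
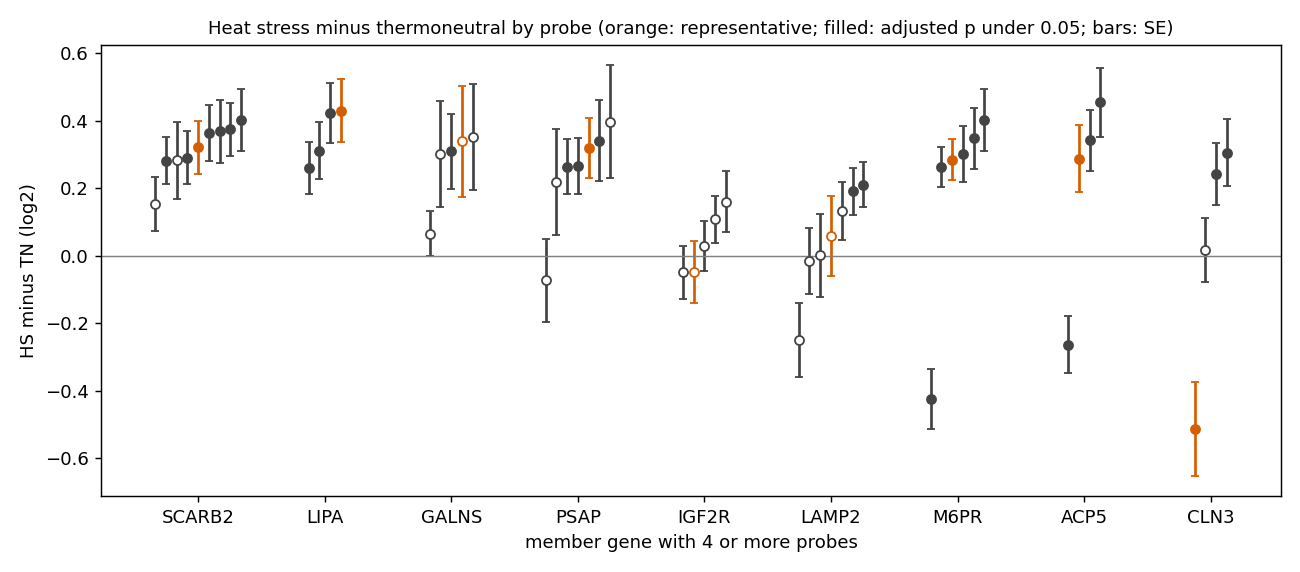
HS minus TN difference (log2, vertical axis) with its SE for every probe of the 9 genes with 4 or more probes; the representative probe is orange and filled points had an adjusted p under 0.05. Filled points lie on both sides of 0 for M6PR, ACP5 and CLN3, and all LIPA and SCARB2 probes lie above 0.

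LGMN had 1 probe, and 37 of its bases are the reverse complement of another probe, named only by a transcript in the files. The shared stretch is shown in capitals, 30 bases of it, as each probe carries it.
LGMN O11974, bases 24 to 53: GGGGTTTATGCTCCTCTTCAATAAAATCAC
A_72_P624252, bases 30 to 59: GTGATTTTATTGAAGAGGAGCATAAACCCC
O11974 was well above background on 30 of 35 arrays and differed by 0.05. The 4 probes on the opposite strand were well above background on all 35 arrays and rose by 0.31 to 0.44 (adjusted p from 0.019 to 0.0492 by limma). They fall outside the naming rule and do not count among the members. Probes named LAMP-1 and AS-A, outside the rule as well, gave 0.36 ± 0.07 and 0.38 ± 0.11 (SE, adjusted p = 0.00159 and 0.00808 by limma) for LAMP-1, and a fall by 0.48 beside a rise of 0.31 for the AS-A pair (adjusted p = 0.0032 and 0.00585).

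Within breeds, the calls came from the F1 pigs. In F1, 12 genes were up-regulated and 5 were down-regulated in HS (53.1%, against 43.6% of all named genes, 23.1% up and 20.6% down, and 38.7% of all probes), and 13 of these 17 were also past the threshold in the additive fit. No member passed in CR or LW, as no probe of the whole array did (0% of all probes), and the smallest adjusted p by limma was 0.557 and 0.563. An unadjusted p under 0.05 was found for 5 of the 32 members in CR and 6 in LW, against 862 and 794 of the 8601 named genes. The median difference of the 32 genes was 0.30 in F1, 0.14 in CR and 0.09 in LW, against 0.13, 0.02 and 0.01 for all named genes. HS pigs of F1 lay wholly above TN pigs for CD63, IDS, LIPA, ACP5 and M6PR (5 of 32 genes, against 4.78% of all named genes) and wholly below for GAA (against 9.84%). In CR this held for HEXA alone, by the narrow gap given earlier (above, against 0.43%, and 0.0349% below). In LW it held for no gene (0.837% above and 0.0814% below).

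The largest rises within F1 pigs were those of HEXA (0.69 ± 0.16 SE, adjusted p = 0.00137 by limma), LAPTM5 (0.63 ± 0.20 SE, adjusted p = 0.0131) and IDS (0.62 ± 0.13 SE, adjusted p = 0.000681). ACP5 rose by 0.61, GUSB by 0.61, LIPA by 0.59, CD63 by 0.53 and M6PR by 0.46. CTNS passed in F1 and not over all breeds, at 0.44 (adjusted p = 0.0102 by limma). The falls were those of the CLN3 probe (by 0.94), LAPTM4A (by 0.76), SMPD1 (by 0.57), GAA (by 0.35) and TPP1 (by 0.30).

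The difference between breeds itself was not established for any member. In the interaction test 0 of 32 genes passed (0% of all probes) and the smallest adjusted p by limma was 0.278. An unadjusted p under 0.05 was found for 5 of the 32 genes, against 1500 of the 8601 named genes. SMPD1 had the smallest interaction p (0.0128 unadjusted). Its values went from 7.60 to 8.24 (median 8.01) in TN to 7.07 to 7.69 (median 7.49) in HS in F1. They were 7.36 to 7.87 in TN and 7.45 to 8.07 in HS for CR, and 7.42 to 8.13 and 7.28 to 8.03 for LW. The HS pigs of F1 were lower with a slight overlap, and the climates largely overlapped in CR and LW. For IDS the differences were 0.62 in F1, 0.22 in CR and 0.08 in LW (adjusted p = 0.278 by limma for the interaction). For ACP5 they were 0.61, -0.06 and 0.28 (adjusted p = 0.282 by limma for the interaction).

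Between breeds, 2 of 32 genes passed for CR minus LW (6.25%, against 1.1% of named genes and 1.08% of probes), LIPA and LAMP2. No member passed for F1 minus CR (2 unadjusted, 0.184% of all probes called) or F1 minus LW (1 unadjusted, 0.0256%), by limma. Of the 8601 named genes, 403 and 385 had an unadjusted p under 0.05. LIPA was higher in CR by 0.58 ± 0.12 (SE, adjusted p = 0.00449 by limma, 1.5-fold), with 9.91 to 10.89 (median 10.35) in the 11 CR pigs, 9.53 to 10.81 (median 10.08) in the 12 F1 pigs and 9.18 to 10.40 (median 9.63) in the 12 LW pigs. CR was highest and LW lowest with F1 between, and the ranges overlapped. Of the 4 LIPA probes, A_72_P618361 and A_72_P110576, placed at 2199 and 2377 of their transcript, gave 0.58 each. A_72_P539028, placed at 1392 of that transcript, gave 0.12 and A_72_P440311 gave -0.02, neither past the threshold. The difference between the probes was not tested, and whether the breeds differ in the sequence under a probe cannot be told from these files.

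For LAMP2 the sign depended on the probe. Its representative probe A_72_P717088 was lower in CR by 0.59 (SE 0.15, adjusted p = 0.0338 by limma), with 7.50 to 8.90 (median 7.95) in CR, 8.31 to 9.07 (median 8.62) in F1 and 8.23 to 9.24 (median 8.69) in LW. The CR pigs reached lower than the other breeds and overlapped them at the top. The other 6 LAMP2 probes were all higher in CR, by 0.16 to 0.43, and none passed. The call was lost when any of 12 of the 35 pigs was left out. SGSH (0.20 ± 0.07 SE, adjusted p = 0.232 by limma) and ARSB (0.26 ± 0.10 SE, adjusted p = 0.259) had the next smallest p-values and did not pass.

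**Figure D4:**
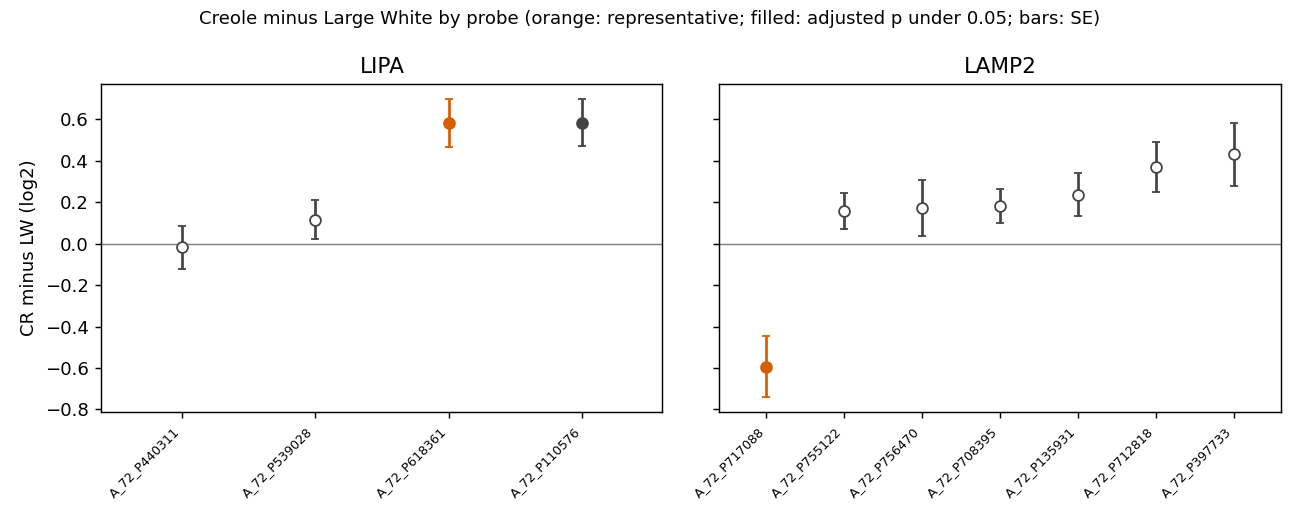
CR minus LW difference (log2, vertical axis) with its SE for the probes of LIPA (left) and LAMP2 (right), ordered by value; orange marks the representative probe and filled points had an adjusted p under 0.05. For LIPA 2 probes lie at 0.58 and the others near 0, and for LAMP2 the representative probe lies at -0.59 and the other 6 above 0.

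Other genes of the lysosome were counted in the same fit, to be read against 22.7% of all named genes up, 16.8% down and a median of 0.06. Of 20 further enzymes measured, 8 rose and 2 fell in HS, with a median of 0.17; NAAA, an amidase of lipid ethanolamides, rose by 0.42 (adjusted p = 0.00159 by limma). Of 16 further membrane proteins, 4 rose and 2 fell (median 0.07); ABCB9, a peptide transporter, fell by 0.56 and TMEM63A rose by 0.30 (adjusted p = 0.00266 and 0.0032 by limma). Of 17 genes of tagging and sorting, 8 rose and 1 fell (median 0.11). NAGPA, which uncovers the mannose 6-phosphate tag, rose by 0.42 (adjusted p = 0.00159 by limma), and AP1B1, a subunit of a clathrin adaptor, fell by 0.82 (adjusted p = 0.0042). Of 12 regulators, 5 rose and none fell (median 0.18); MITF, a transcription factor of the family of TFEB, rose by 0.54 (adjusted p = 0.00159 by limma) and LAMTOR2, part of the scaffold that holds mTOR complexes at lysosomes, by 0.35 (adjusted p = 0.00177). TFEB itself differed by 0.04 and did not pass.

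Blood cell markers were counted in the same fit, to be read against 22.7% of all named genes up and 16.8% down. In whole blood fewer cells of a type and less RNA per cell cannot be told apart. Of 15 erythroid genes measured, 7 fell and 1 rose in HS, with a median difference of -0.67, and the mean of the list went from 11.19 in TN to 10.16 in HS for F1, from 10.78 to 10.27 for CR and from 10.94 to 10.60 for LW. The log2 of the summed erythroid level ranged from 18.34 to 18.65 in CR, 18.20 to 19.12 in F1 and 18.38 to 19.17 in LW pigs in TN, and from 18.14 to 18.90, 17.97 to 18.92 and 18.60 to 19.06 in HS. Of 12 neutrophil genes all were lower in HS and none passed (1 unadjusted), and of 8 monocyte genes 3 rose. Of the other lists, 3 of 12 T-cell genes and 2 of 6 B-cell genes rose, 1 of 8 cytotoxic genes fell, and 0 of 6 platelet genes passed (0 unadjusted) by limma. The called shares were 53.3% of the erythroid, 37.5% of the monocyte, 33.3% of the B-cell, 25% of the T-cell and 12.5% of the cytotoxic genes. For all named genes the share was 39.6%, and only the erythroid list lay above it.

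The count of member calls fell to 0 under 2 of the settings tried. With the erythroid list mean as a covariate, 0 of 32 genes passed in the additive fit (28 of all probes did, 0.0717%), while 13 members had an unadjusted p under 0.05 (40.6%, against 29.1% of named genes). The smallest adjusted p of a member was then 0.0602 by limma. All 15 genes kept their sign, at 0.50 to 1.22 times the original difference, and the median of the 32 genes was 0.12 against 0.04 for all named genes. In F1 pigs 9 genes then passed, a count without the share of all genes beside it, from which nothing particular to the members is read. Without the F1 pigs 0 members passed (10 unadjusted, 31.2% against 20.3% of named genes), as did 0 of all probes. The 15 genes kept their sign at 0.42 to 0.98 times the original, and the member median was 0.12 against 0.02. The part of the erythroid fall in the member differences was not tested beyond this covariate.

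**Figure D5:**
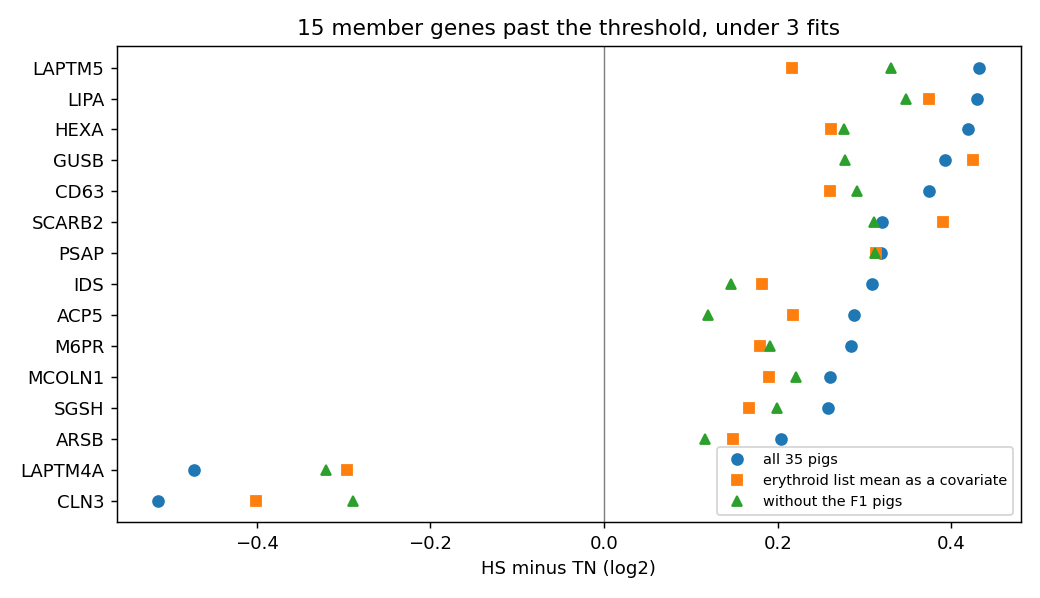
HS minus TN difference (log2, horizontal axis) of the 15 genes past the threshold with all 35 pigs (circles), with the erythroid list mean as a covariate (squares) and without the F1 pigs (triangles). Every gene stays on its side of 0; LAPTM5 goes from 0.43 to 0.22 with the covariate, and SCARB2 from 0.32 to 0.39.

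The arrays were hybridised on 5 slides, each with pigs of both climates. In the 4 slides that allowed a fit with breed, the median HS minus TN difference of the 32 genes was 0.16, 0.27, 0.19 and 0.19, against -0.0019, 0.058, 0.033 and 0.083 for all named genes. The fifth slide, with 4 arrays, could not be fitted. Between 55.2% and 68% of the probes were well above background on an array. The 75th percentile of the processed signal was 149.9 ± 28.3 (SD, n = 6) in TN pigs of F1 and 238 ± 35.6 (SD, n = 6) in HS pigs of F1 before normalization. It was 227.8 ± 66.5 (SD, n = 5) in TN and 224.7 ± 54.6 (SD, n = 6) in HS for CR. For LW it was 203.7 ± 30.9 in TN and 202.1 ± 29.6 in HS (SD, n = 6 each). The part of the gap of F1 in the F1 differences was not tested.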

How the data were processed

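RNA of whole blood from 35 pigs was hybridised on custom porcine Agilent arrays with 60-base probes, on 5 slides. Per the file headers, the deposited scanner files hold the median intensity of each spot and its background, read with Agilent Feature Extraction 10.10.1.1 (version also in the submitters' processing notes), and a background-subtracted processed intensity, neither normalized between arrays. The authors deposited a table of log2 values, for which median intensities were quantile normalized, with a filter on expressed probes whose rule is not given in the sources used here. These log2 values were used as deposited; set beside scanner medians normalized here they had a correlation of 0.99987 to 0.999994 per array and a median absolute difference of 0.0235. No array had a saturated probe spot. For arrays, the number of arrays limits the precision.

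All 39072 probes of the table were fitted with limma 3.58.1 (lmFit, eBayes) in R 4.3.3, two-sided, with Benjamini-Hochberg adjustment over all of them and a threshold of 0.05. An additive model with terms for breed and climate gave HS minus TN and the breed contrasts and a model of the 6 group means gave within-breed differences and the interaction; in it all groups share 1 estimate of spread. Pen, slaughter day and parents, which the study fitted, have no labels here. Replicate numbers follow accession order and only name pigs. The scripts were tested on simulated data.

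Probes were joined to genes by the symbol in the scanner files. Values per group were given for up to 12 members past the threshold with the smallest p in HS minus TN, the 4 smallest in CR minus LW, the 3 smallest in the interaction, and members with probes past the threshold in opposite directions; of each further lysosomal list the 2 smallest p-values were named, apart from 1 result that is not reported here. The members, the lists and the tests were chosen with earlier results of these data known. Alternatives were other normalizations, background correction and filters, the slide as a block, array weights, a blood cell list as covariate, probe means and leaving out pigs; the neutrophil and monocyte covariates were added after seeing the data. No coordinates are given, since no genome was used.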

Additional observations from a re-analysis of the deposited data

Results flagged for a closer look

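In 4 of the 96 groups of pigs examined (16 members in 6 groups), 1 pig stood apart from the rest by Dixon's gap test, for which chance gives about 5% of groups. For MCOLN1, replicate 3 of LW in TN had a log2 value of 9.31, against 8.89 to 8.99 in the other pigs. For PSAP, replicate 3 of CR in TN had 13.97, against 14.45 to 14.64. For ARSB, replicate 5 of F1 in TN had 7.29, against 6.74 to 6.86. For ACP5, replicate 1 of CR in TN had 14.13, against 13.79 to 13.88.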

How the results depend on the processing

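The count of 15 members past the threshold in HS minus TN was 0 with the erythroid list mean as a covariate and 0 without the F1 pigs, and ranged from 14 to 18 when 1 pig was left out. In F1 the count of 17 was 9 with the erythroid covariate and ranged from 12 to 20 when 1 pig was left out. In LW the count was 2 with array weights (MCOLN1 and SGSH). The shares of all genes are not given beside any count in this paragraph, so nothing particular to the members is read from these counts. For CR minus LW the count of 2 was 1, LIPA, with no filter, without the F1 pigs, with probe means and with the monocyte covariate. It ranged from 1 to 2 when 1 pig was left out, and LAMP2 was lost without replicates 1 or 3 of CR in TN, 1, 3, 5 or 6 of CR in HS, 4 of LW in TN, and 1, 2, 3, 5 or 6 of LW in HS. For F1 minus CR it ranged from 0 to 1, with LAMP2 past the threshold without replicate 5 of CR in TN. The CLN3 difference reversed from a fall by 0.51 to a rise of 0.013 with the mean of its probes, which averages probes of opposite sign. The causes of the other changes were not tested. No other count moved by over 1.5 times. The median of all probes was 0.06 in the main fit, 0.08 with scaling on the 75th percentile and 0.05 with normexp. No paired analysis was possible because the labels give no replicate numbers that tie pigs across groups.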
